A study of Mus musculus with 4 samples.

Results

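The genes for inhibitors of the cyclin-dependent kinases (CDKs) and for the D-type cyclins were compared between differentiating cultures of leukemic and normal mouse erythroid cells. The genes considered were the CIP/KIP inhibitors Cdkn1a, Cdkn1b and Cdkn1c, the INK4 inhibitors Cdkn2a, Cdkn2b, Cdkn2c and Cdkn2d, and the cyclins Ccnd1, Ccnd2 and Ccnd3. A gene was included where the array had a feature annotated to it and to no other gene. This held for 9 of the 10 genes, with 10 features among the 28944 tested, since Cdkn1b had 2. Cdkn1a had no feature of its own, because the array's annotation gives its feature to 4930567H12Rik as well. It is not among the 9 genes, and the shared feature is described only at the end.

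RNA of 4 cultures was hybridised to 1 Affymetrix Mouse Gene 1.0 ST array each. The MEL group had 2 cultures, A and B, of an erythroleukemia line grown in DMEM with fetal bovine serum, L-glutamine and puromycin and differentiated by 17b-estradiol for 48 hours. The ES-EP group had 2 cultures, A and B, of erythroid progenitors derived from embryonic stem cells. They had been grown in StemPro34 medium with Epogen (erythropoietin), IGF-1, dexamethasone, stem cell factor and b-mercaptoethanol, and were differentiated for 24 hours in the same medium with Epogen, insulin, mifepristone and b-mercaptoethanol. The labels name no genotype or transgene for either group and do not say whether a line is 1 clone. Line, agents, medium and hours differed together and cannot be told apart, and since cultures before differentiation were not analysed here, no value below is a change during differentiation.

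The D-type cyclins bind the kinases CDK4 and CDK6, and the active complexes phosphorylate the retinoblastoma protein RB, which then releases E2F factors that switch on the genes of S phase. INK4 proteins bind CDK4 and CDK6 and keep the D cyclins off them, while CIP/KIP proteins bind whole cyclin and CDK complexes, above all those with CDK2. Red cell precursors divide a limited number of times and leave the cell cycle as they mature, and cyclin D3 and the p27 protein, encoded by Cdkn1b, are known for their part in setting those last divisions.

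Of the 9 genes, 6 were lower in MEL than in ES-EP cultures, 1 was higher, and 2 did not pass. The lower genes were Cdkn2b, Ccnd3, Cdkn2c, Ccnd2, Cdkn1c and Cdkn1b, in order of the size of the difference. The higher gene was Cdkn2d. Order and counts rest on the brightest feature of each gene, and the dimmer feature of Cdkn1b was 2.02-fold lower. Among all 19938 genes 36.9% passed as lower and 21.8% as higher (limma, adjusted p under 0.05). Over the 9 genes the median of MEL minus ES-EP was -0.37 on the log2 scale, and over all genes it was -0.14. At least 2-fold, 1 of the 9 was lower and 1 higher, against 4.93% and 7.38% of all genes. The values of the MEL and ES-EP arrays did not overlap for 8 of the 9 genes, and 80.2% of all genes had that property.

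Cdkn2b and Cdkn2d, the 2 INK4 genes with differences over 2-fold and in opposite directions, are shown first by the 250 bases before their RefSeq start (assembly GRCm38.p6, 5′ to 3′ on the gene's strand). Capitals mark matches to a GC box, GGGCGG, the letters that Sp and KLF factors bind, and to the cAMP response element, TGACGTCA. Both strands were searched, and matches of different motifs could overlap. The Cdkn2b stretch lies at chr4:89311033-89311282 and the Cdkn2d stretch at chr9:21291210-21291459, both on the minus strand.
Cdkn2b: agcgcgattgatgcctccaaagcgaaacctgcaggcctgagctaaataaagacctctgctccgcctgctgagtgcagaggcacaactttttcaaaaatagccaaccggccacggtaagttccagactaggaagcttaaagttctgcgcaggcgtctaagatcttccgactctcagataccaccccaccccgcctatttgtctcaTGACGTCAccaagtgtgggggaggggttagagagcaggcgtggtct
Cdkn2d: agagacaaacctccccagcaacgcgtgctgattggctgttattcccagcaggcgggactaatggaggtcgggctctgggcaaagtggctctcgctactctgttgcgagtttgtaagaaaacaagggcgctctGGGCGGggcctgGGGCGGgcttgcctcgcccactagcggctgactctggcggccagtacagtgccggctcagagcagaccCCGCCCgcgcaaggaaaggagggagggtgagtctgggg
The Cdkn2d stretch held 3 GC boxes, and such a box was found in 32.7% of all 32851 RefSeq stretches of this length. The Cdkn2b stretch held none and had 1 cAMP response element, which 1.55% of all stretches held. The CCAAT box, CCAAT, and the TATA box, TATAAA, were also searched for and are not marked. They occurred in 33.8% and 12.4% of all stretches. The Cdkn2d stretch held 1 CCAAT box and no TATA box, and the Cdkn2b stretch held neither. The GC content of the Cdkn2b stretch was 53.6%, and that of Cdkn2d was 63.6%, against a median of 52.4% over all stretches.

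RefSeq gave 9 such stretches for 6 of the genes, with 2 starts each for Cdkn2a, Cdkn2c and Ccnd3 and 1 each for Cdkn1b, Cdkn2b and Cdkn2d. Cdkn1c, Ccnd1 and Ccnd2 had no entry. The first listed start of Cdkn2c had 3 GC boxes and the second 0, those of Cdkn2a had 2 and 0, those of Ccnd3 had 2 and 1, and that of Cdkn1b had 1. The letters GATAA, bound by GATA factors, occurred in none of the 9 stretches and in 22.6% of all stretches, and the E-box CACGTG occurred in none of the 9 and in 6.02% of all. A match to such letters is a description of the sequence only.

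Among the INK4 genes, Cdkn2b, which encodes the p15 protein known as a target of TGF-beta signalling, had the largest difference of all 9 genes. Its log2 values were 6.95 and 6.92 in MEL cultures A and B and 9.23 and 9.06 in ES-EP cultures A and B. All 4 arrays showed the gap, and the lowest ES-EP value lay 2.11 above the highest MEL value. The difference was -2.21 ± 0.09 (log2, SE, n = 2 per group), so that Cdkn2b was 4.63-fold lower in MEL, with a 95% interval of 3.99 to 5.38-fold (limma, adjusted p = 1.92e-06). Only 0.818% of all genes had an equal or lower value of MEL minus ES-EP.

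Cdkn2d, which encodes the p19 INK4 protein, stood on the other side. Its log2 values were 9.64 and 9.57 in MEL and 8.29 and 8.29 in ES-EP cultures A and B. Both MEL arrays lay above both ES-EP arrays, by at least 1.28. The difference was 1.32 ± 0.08 (log2, SE, n = 2 per group), a 2.50-fold higher level in MEL with a 95% interval of 2.18 to 2.86-fold (limma, adjusted p = 1.38e-05). The differences of Cdkn2d and Cdkn2b thus lay 3.53 log2 units apart within one family.

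Cdkn2c, which encodes the p18 INK4 protein, was lower in MEL by a smaller amount. Its log2 values were 8.75 and 8.93 in MEL and 9.47 and 9.51 in ES-EP cultures. The groups did not overlap, and the 2 MEL cultures were farther from each other than the ES-EP cultures were. The difference was -0.65 ± 0.09 (log2, SE, n = 2 per group), or 1.57-fold lower (limma, adjusted p = 0.000918).

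Cdkn2a, the direct neighbour of Cdkn2b on chromosome 4, did not pass. This gene makes both the p16 INK4 protein and, from another start and another reading frame, the p19 ARF protein that stabilises p53. Its feature is annotated with transcripts from both starts, so the 2 products cannot be told apart here. The log2 values were 9.62 and 9.60 in MEL and 9.86 and 9.63 in ES-EP cultures, and ES-EP culture B lay close to both MEL cultures. The difference was -0.14, and its 95% interval ran from -0.37 to 0.10 (limma, adjusted p = 0.275). The difference of Cdkn2a was 2.07 log2 units above that of Cdkn2b.

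**Figure D1:**
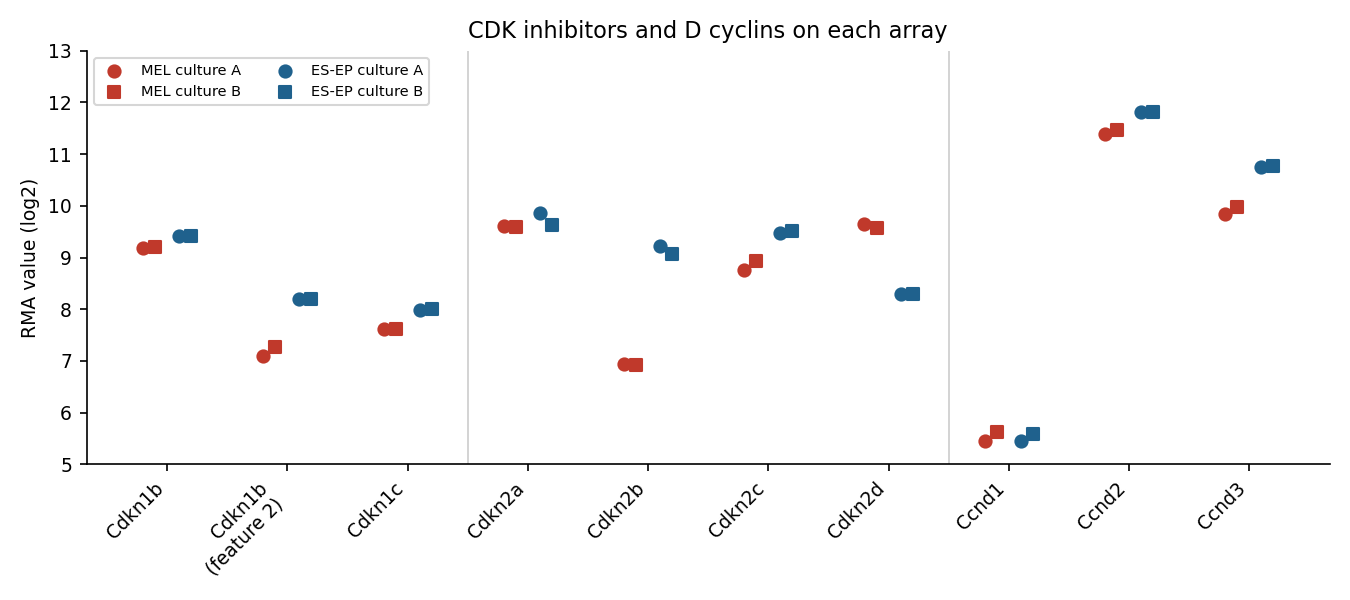
RMA values (log2, y axis) of the 10 features of the 9 genes on each of the 4 arrays, with MEL in red, ES-EP in blue, circles for culture A and squares for culture B, and grey lines between the CIP/KIP, INK4 and D cyclin families. Cdkn2b is near 6.9 in MEL and above 9.0 in ES-EP cultures, Cdkn2d is the gene with higher MEL values, and the arrays of Ccnd1 overlap.

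Both measured CIP/KIP genes were lower in MEL, Cdkn1c by more than the brighter feature of Cdkn1b. Cdkn1c encodes the p57 protein and is an imprinted gene. Its log2 values were 7.62 and 7.62 in MEL and 7.98 and 8.0 in ES-EP cultures. The duplicates lay close together in both groups, without overlap. The difference was -0.37 ± 0.08 (log2, SE, n = 2 per group), or 1.30-fold lower in MEL (limma, adjusted p = 0.00611).

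Cdkn1b encodes p27, an inhibitor that accumulates when many cell types stop dividing, and its 2 features differed in how far they went. The brighter feature had log2 values of 9.19 and 9.20 in MEL and 9.42 and 9.42 in ES-EP cultures, a difference of -0.22 ± 0.08 (SE, n = 2 per group) that passed narrowly (limma, adjusted p = 0.0473). The dimmer feature had 7.10 and 7.28 in MEL and 8.21 and 8.20 in ES-EP cultures, a difference of -1.02 ± 0.09 or 2.02-fold lower (limma, adjusted p = 9.27e-05). Both features were lower in MEL, by amounts whose 95% intervals, -0.41 to -0.03 and -1.24 to -0.80, do not meet. The mean of the 2 features differed by -0.62 (limma on gene means, adjusted p = 0.000247). The call of the brighter feature was lost without any one of the 4 cultures, with adjusted p of 0.0711 and 0.0667 without MEL culture A or B and 0.214 and 0.204 without ES-EP culture A or B (limma). It was also lost after quantile normalization, centring on array medians and cyclic loess, with adjusted p of 0.132, 0.321 and 0.211 (limma). The count of lower genes was then 5 of 9. The spread that limma used differed between these scalings as well. Cdkn2b, at -2.15 after centring and -2.27 after quantile normalization, had adjusted p of 1.8e-59 and 2.89e-05 (limma). The parts of reference and spread in the lost call were not tested.

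The D cyclins differed from each other in the size of the difference. Ccnd3, the D cyclin best known in erythroid cells, had log2 values of 9.84 and 9.98 in MEL and 10.75 and 10.78 in ES-EP cultures. Both MEL arrays lay at least 0.77 below the ES-EP arrays. The difference was -0.85 ± 0.09 (log2, SE, n = 2 per group), or 1.81-fold lower in MEL with a 95% interval of 1.57 to 2.08-fold (limma, adjusted p = 0.000173). Of all genes, 6.73% had an equal or lower difference.

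Ccnd2, a D cyclin that STAT5 and MYC are known to activate in blood cells, had log2 values of 11.39 and 11.46 in MEL and 11.81 and 11.81 in ES-EP cultures. These were bright on all 4 arrays, and the groups were separate. The difference was -0.38 ± 0.08 (log2, SE, n = 2 per group), or 1.30-fold lower in MEL (limma, adjusted p = 0.00613). The difference of Ccnd3 lay 0.47 log2 units beyond that of Ccnd2, which was not tested.

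Ccnd1, the D cyclin of many epithelial and mesenchymal cells, had log2 values of 5.45 and 5.62 in MEL and 5.46 and 5.60 in ES-EP cultures. The arrays of the 2 groups overlapped, and all 4 values lay below their array's median of 5.78 to 5.91. The table has no detection calls, so these values were not told from background. The difference was 0.00, and its 95% interval ran from -0.23 to 0.24 (limma, adjusted p = 0.974), which leaves room for up to 1.18-fold in either direction.

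**Figure D2:**
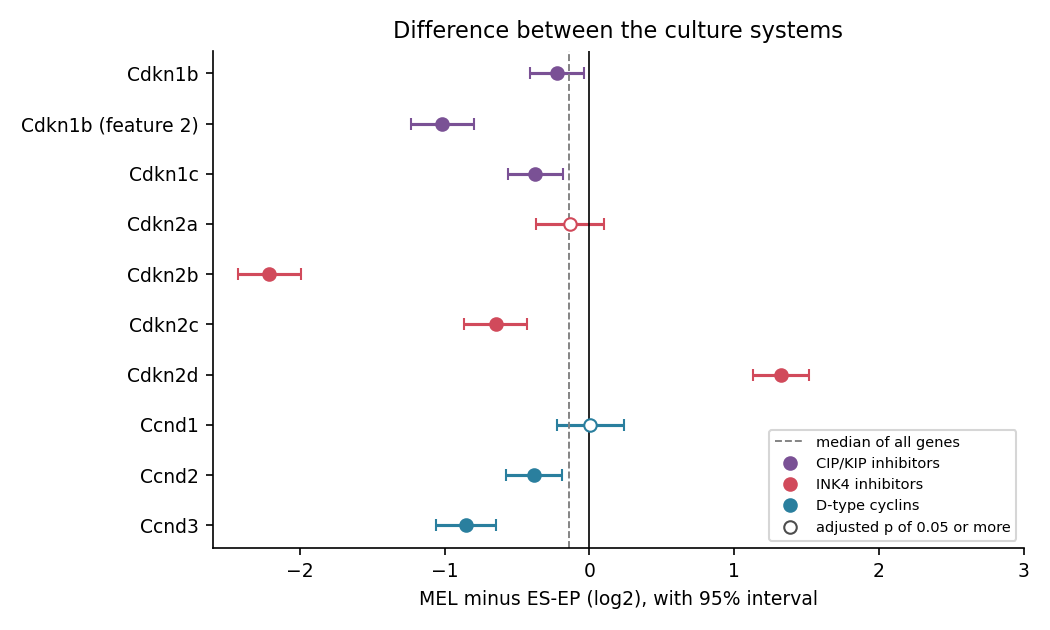
Difference of MEL minus ES-EP (log2, x axis) for the 10 features, with 95% intervals from limma, filled points at an adjusted p under 0.05 and a dashed line at the median of all genes, -0.14. Cdkn2b at -2.21 and Cdkn2d at 1.32 lie farthest out, and the 2 features of Cdkn1b lie at -0.22 and -1.02.

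Small differences depended on the reference. Relative to the median of all genes, the differences were -2.07 for Cdkn2b, -0.71 for Ccnd3, -0.51 for Cdkn2c, -0.24 for Ccnd2, -0.23 for Cdkn1c, -0.08 for the brighter feature of Cdkn1b and 0.00 for Cdkn2a. Those of Ccnd1 and Cdkn2d were 0.14 and 1.46. Quantile normalization brought that median to -0.02, centring to -0.07 and cyclic loess to 0.02. Of the features that passed, 33.8% were higher in MEL as deposited, 45.6% after quantile normalization and 51.9% after cyclic loess. Under these 3 scalings Cdkn2b, Cdkn2c, Cdkn2d, Cdkn1c, Ccnd2 and Ccnd3 passed in the same direction. With features under the median level left out, the median of the remaining genes was -0.05. Relative to it, the brighter feature of Cdkn1b differed by -0.18 and Cdkn2a by -0.09.

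**Figure D3:**
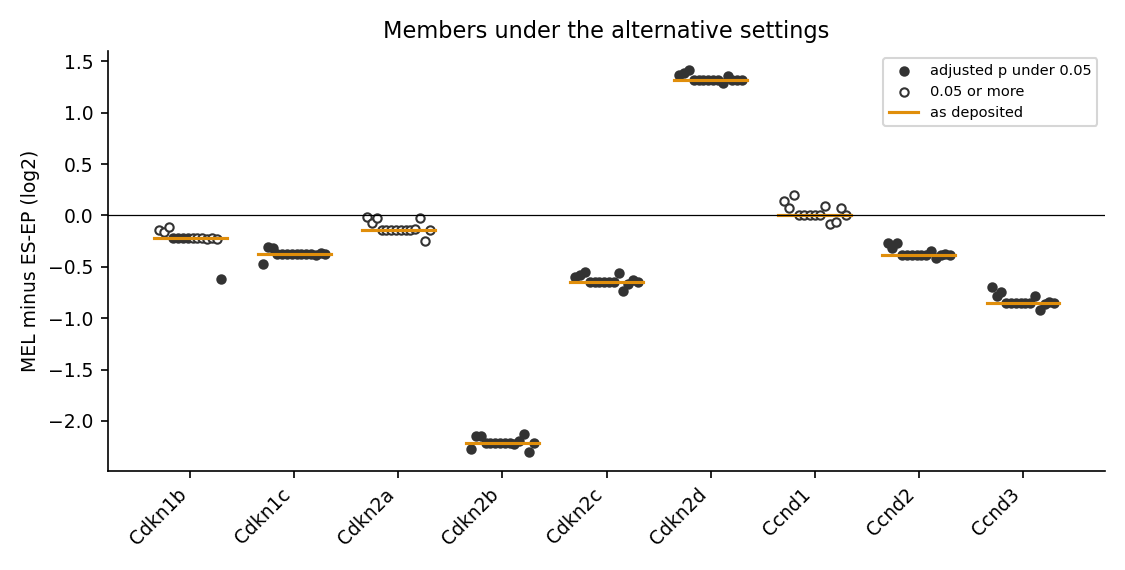
Difference of MEL minus ES-EP (log2, y axis) of the 9 genes under the alternative settings, with filled points at an adjusted p under 0.05, open points above it and an orange line at the value as deposited. Cdkn2b stays between -2.30 and -2.13 and Cdkn2d between 1.28 and 1.42, while Cdkn1b passes in 5 of 14 settings. Its rightmost point, at -0.62, is the mean of its 2 features, and its other points are the brighter feature.

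The genes next to the 9 on their chromosomes differed less than Cdkn2b and Cdkn2d did. Of 16 nearest measured neighbours in RefSeq order that are not themselves among the 9, 3 were higher and 7 lower in MEL, with differences of -0.86 to 0.63. Among all genes 21.8% were higher and 36.9% lower. The Cdkn2a and Cdkn2b pair lies between Mtap, a methionine salvage enzyme, and Dmrta1, which were picked for their place after their values were seen. Mtap differed by -0.49 (limma, adjusted p = 0.00429) and Dmrta1 by -0.39 (adjusted p = 0.0548), against the -2.21 of Cdkn2b between them. Dmrta1 was dim, at 4.79 and 4.35 in MEL and 5.03 and 4.89 in ES-EP cultures. These values lay below each array's median and were not told from background.

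The genes most like Cdkn2d over the 4 arrays, after each gene was centred on its mean, were Dnajb2, a co-chaperone gene, and Tor3a, at root mean square distances of 0.014 and 0.018 log2 units. Those most like Cdkn2b were A26c3 and Cfap300, at 0.017 and 0.041. With 4 arrays in 2 groups this likeness rests mostly on the size of the difference, and A26c3 and Cfap300 were dim in MEL, at 3.29 to 3.37 and 3.68 to 3.76.

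The kinases and cyclins that work with these genes differed by less than Cdkn2b and Cdkn2d did. The counts of the lists that follow stand beside 36.9% lower and 21.8% higher among all genes. Of the 4 catalytic partners Cdk1, Cdk2, Cdk4 and Cdk6, 2 were lower in MEL and 2 did not pass. Cdk4, a partner of the D cyclins and target of INK4 proteins, had log2 values of 12.13 and 12.17 in MEL and 12.11 and 12.10 in ES-EP cultures, which left a difference of 0.05 (95% interval -0.14 to 0.23) (limma, adjusted p = 0.652). Cdk6, the other partner, differed by -0.31 (limma, adjusted p = 0.025). That call was lost after quantile normalization (0.0942), centring (0.105) and cyclic loess (0.0694), and with the control features included (0.0537). It was also lost without MEL culture A, ES-EP culture A or ES-EP culture B, where the differences were -0.22, -0.33 and -0.30. Cdk2, the kinase that CIP/KIP proteins restrain, was 1.69-fold lower (adjusted p = 0.000205). Among 8 other cyclins 4 were lower and 1 higher, with Ccne2, a partner of CDK2, 1.64-fold lower and Ccng2, an atypical cyclin linked to cell cycle arrest, 2.28-fold higher. Of 11 CDK activators and inhibitory kinases 5 were higher and 4 lower, with Cdc25a, the phosphatase that activates CDK2, 2.39-fold lower and the kinase chaperone gene Cdc37 1.58-fold higher.

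Downstream, 9 of 13 genes of the RB pocket proteins and E2F factors were lower in MEL and the other 4 did not pass, with a median difference of -0.49. Rb1, which encodes the RB protein, had log2 values of 9.88 and 10.08 in MEL and 10.58 and 10.63 in ES-EP cultures, or 1.54-fold lower (limma, adjusted p = 0.00134). E2f2 was 4.06-fold lower (adjusted p = 3.82e-06). The list had 8 lower and 1 higher gene after quantile normalization, and 8 and 2 after cyclic loess.

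Upstream, of 22 measured transcriptional controllers of the 9 genes 11 were higher in MEL and 3 lower, with a median of 0.28. Foxo1, a factor that activates Cdkn1b, was 3.81-fold higher (limma, adjusted p = 4.53e-06). Ezh2, the Polycomb methyltransferase known for silencing the Cdkn2a and Cdkn2b locus, was 2.23-fold lower (adjusted p = 3.3e-05). Of 16 turnover genes, whose products tag the inhibitors and D cyclins for destruction or act in that path, 3 were higher and 6 lower, which became 4 and 5 after quantile normalization and 5 and 4 after cyclic loess. Skp2, the ubiquitin ligase subunit that marks p27 for destruction, was 1.93-fold higher (adjusted p = 0.00011), and Ubac1, a subunit of another p27 ligase, 3.87-fold lower (adjusted p = 1.97e-06). Among 8 other brakes on proliferation 3 were higher and 3 lower, with Gadd45b 7.62-fold higher and Gadd45a 4.90-fold lower. Apart from Cdk6, the 15 genes named from these lists kept their call under the other scalings, priors and feature sets in which they were measured, with the replicate block and without each culture, and the 2-fold criterion was not applied to them.

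**Figure D4:**
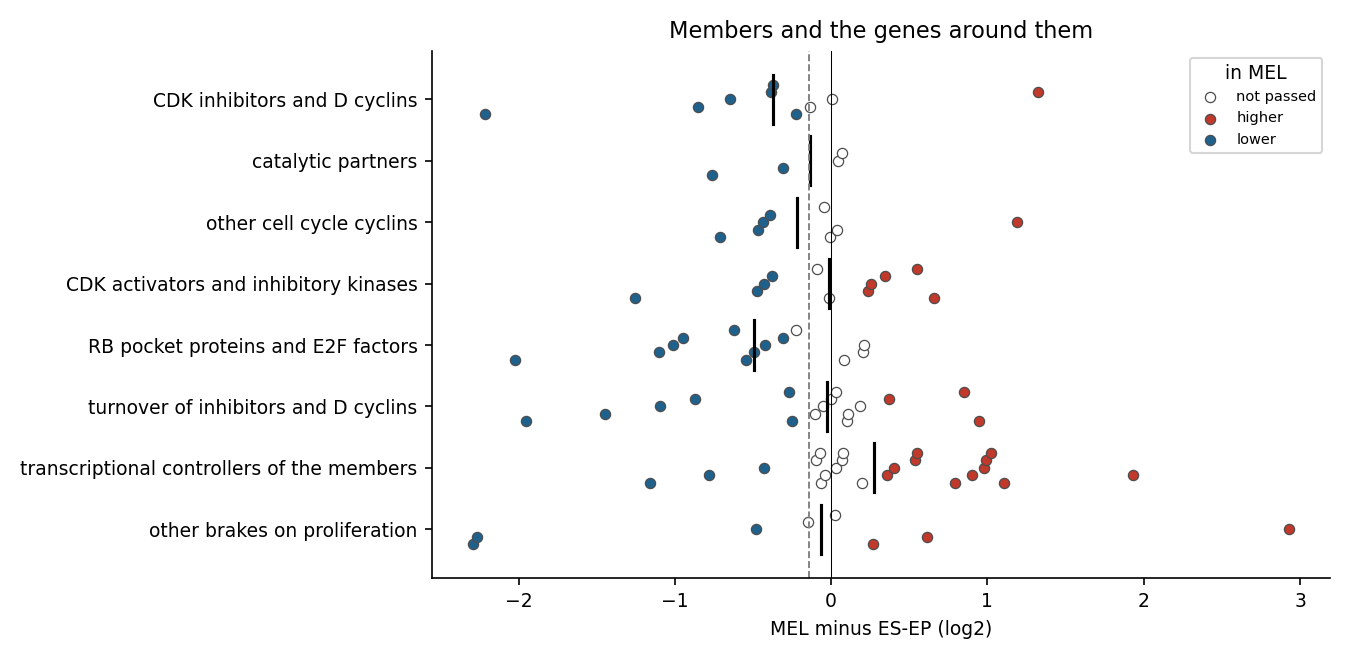
Differences of MEL minus ES-EP (log2, x axis) for the 9 genes and for 7 lists of related genes, 1 point per gene, with red for higher, blue for lower and white for genes that did not pass, a short black bar at each median and a dashed line at the median of all genes, -0.14. The RB and E2F genes have a median of -0.49, and the transcriptional controllers one of 0.28.

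All 4 arrays had the erythroid markers, and duplicates were much closer to each other than to the other group. Correlations across features were 0.997 between the MEL arrays, 0.998 between the ES-EP arrays and 0.948 to 0.949 between groups, as a description of arrays whose features are not independent. The 9 measured erythroid markers had mean log2 values between 7.04 and 12.42 in MEL cultures and between 9.59 and 13.22 in ES-EP cultures, with Slc4a1 the lowest in MEL. Of these 7 were lower and 2 higher in MEL, with a median difference of -0.79 and summed log2 values of 96.2 to 96.7 on the MEL arrays and 105.6 on both ES-EP arrays, and Slc4a1 was 43.4-fold and Alas2 2.51-fold lower. Of 4 measured megakaryocyte markers 2 were higher in MEL, Pf4 at 8.34 against 3.96 and Itga2b at 9.12 against 6.89, and the list's summed log2 values ran from 30.58 to 30.84 on the MEL arrays and from 23.88 to 24.32 on the ES-EP arrays. The 24 measured markers of myeloid, mast, lymphoid, pluripotent and stromal cells had means between 3.39 and 6.70 in MEL cultures and between 3.71 and 7.45 in ES-EP cultures, with summed log2 values of 109.2 to 111.5 and 119.6 to 119.7. Of these 3 were higher and 15 lower in MEL, among them the mast cell gene Ms4a2 at 3.93 against 7.45. The part of these markers in the differences of the CDK inhibitors and D cyclins was not tested, and fewer cells of a type and less RNA per cell cannot be told apart in such bulk samples.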

How the data were processed

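Gene expression was measured in 2 MEL and 2 ES-EP cultures. Per the labels, the authors deposited RMA values from GeneSpring GX (background correction, quantile normalization, 1 summary per feature), and their range shows a log2 scale. The sources used here give neither the software's version nor its annotation. RMA compresses the differences of dim features, and a change in total RNA per cell cannot be seen.

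Of 35557 features, 6613 were left out as control features. These were the unannotated run of consecutive identifiers at the start of the deposited values, a rule inferred from the identifiers. Symbols came from the platform annotation, updated by Entrez identifier to RefSeq GRCm38.p6 (21698 features matched). The brightest feature with 1 symbol stood for a gene. MEL was set against ES-EP with limma 3.58.1 (lmFit, eBayes; R 4.3.3), with Benjamini-Hochberg adjustment over 28944 features. A gene passed at an adjusted p under 0.05. The fit had 2 residual and 5.15 prior degrees of freedom. An exact permutation test of these 4 arrays has a smallest two-sided p of 0.333, and the tests therefore rest on the spread shared across features. The number of arrays limits the precision, and the p-values measure only the spread between these cultures, which may be technical. Means are over 2 cultures.

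The members and lists were chosen with earlier results of these data known. All members were named, with the largest passing rise and fall of each list of related genes, and Rb1, Cdk4 and Cdk6. The 2 genes most like the member with the largest rise, and those most like the member with the largest fall, were named too. Neighbours were to be named past 2-fold, which none outside the members reached. Mtap and Dmrta1 were named for their place, after their values were seen. The alternatives were other scalings, priors, features tested and size criteria, the mean of a gene's features, the replicate letter as a block, and each culture left out. The fit was also run on simulated data with few changed features and no shift between arrays. That setting differs from these data, so the run does not bear on the calls above.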

Additional observations from a re-analysis of the deposited data

How the results depend on the processing

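Cdkn2b, Cdkn2c, Cdkn2d, Cdkn1c, Ccnd2 and Ccnd3 kept their direction and passed in all 14 alternatives, and Cdkn2a and Ccnd1 passed in none of theirs. The closest calls were those of Cdkn1c and Ccnd2, with adjusted p up to 0.0494 and 0.0439, both without ES-EP culture B (limma). Cdkn1b passed in 5 of 14, with differences from -0.62 for the mean of its features to -0.12 after cyclic loess, and was also lost with the control features included (adjusted p = 0.0683). Of all features, 5523 were higher and 10827 lower in MEL as deposited. The lower count was 7084 after cyclic loess and 5479 with features under the median left out, where fewer features were tested. The 2-fold criterion is not among the 14 alternatives. With it the counts of features were 1816 higher and 1495 lower, and 1 of the 9 genes, Cdkn2b, was lower. Cdkn2d stayed higher, while Cdkn2c, Cdkn1c, Ccnd2, Ccnd3 and the brighter feature of Cdkn1b did not meet it. Culture letters were not said to pair cultures, and the deviations of same-letter arrays correlated at 0.110. With the letter as a replicate block, 5595 features were higher and 11129 lower, Cdkn1b no longer passed (adjusted p = 0.0558), and the calls of the other 8 genes did not change. Leaving out a culture leaves its group with 1 array, which is then taken to vary like the other group. Dim features such as Ccnd1 have little signal over background to show a difference.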

Other observations

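The feature that the annotation gives to both 4930567H12Rik and Cdkn1a had log2 values of 7.81 and 7.90 in MEL cultures A and B and 10.59 and 10.67 in ES-EP cultures A and B. It was 6.85-fold lower in MEL (difference -2.78 ± 0.09, SE, n = 2 per group, limma adjusted p = 4.7e-07). The values do not tell which of the 2 genes gave this signal.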
